A study of Mus musculus with 6 samples.

Results

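Glucocorticoid response genes are the subject here: 9 mouse genes, namely the corticosteroid receptor genes Nr3c1 and Nr3c2 and the responsive genes Fkbp5, Sgk1, Tsc22d3, Zbtb16, Errfi1, Pdk4 and Sult1a1. They were chosen by name as known responders to the hormone, with earlier results of these libraries known, and all 9 were found among the 38087 genes of the deposited table. All 9 passed the filter on low counts, which left 16337 genes for testing. The question was whether their mRNA differed between Sgo1-/+ and WT brains or between single libraries.

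Shugoshin-1 protects cohesin at the centromeres of dividing cells, and the study asked what its loss on a single allele does to the aging brain. RNA-seq was run on brain RNA from 3 WT mice and 3 Sgo1-/+ mice, all 24 months old and untreated, of a strain labelled C57BL6, on which the study's methods say the mice were based. The WT libraries came from run 258 and consist of 1 male (replicate 1) and 2 females, while the Sgo1-/+ libraries came from run 259 and consist of 1 male (replicate 2) and 2 females. Genotype and run therefore cannot be told apart. The heterozygous allele is carried by every cell of the mouse. By the study's methods, the frozen tissue was cerebrum with olfactory bulb, cerebellum and medulla removed.

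Corticosterone, the main glucocorticoid of the mouse, is released by the adrenal cortex after stress and in a daily rhythm. In the cell it binds a receptor held by chaperones, and the receptor then enters the nucleus and acts on target genes at paired half-sites in DNA or through other factors. In brain the mineralocorticoid receptor binds the hormone tightly at rest, the glucocorticoid receptor is filled when hormone is high, and the product of the target gene Fkbp5 lowers the affinity of the receptor for hormone.

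Total estimated counts lay between 11123917 and 12505561 per library. WT replicate 1 stood apart, since it held transcripts of the hindbrain and few of the forebrain. Hoxa5, a hindbrain gene, had a normalized count of 321 in that library and at most 2.86 in the other 5. Camk2a, a kinase gene of forebrain neurons, had 3573 there and 29744 to 37030 elsewhere. Cerebellum markers summed to 29010 normalized counts there and to 2762 to 3390 elsewhere. The content of this library therefore differs from the tissue that the methods describe, and the reason was not tested. The log2 fold change of each of the 9 genes is therefore also given below without WT replicate 1. Xist and Ddx3y matched the labelled sex in 6 of 6 libraries. Sgo1 itself, listed as Sgol1, had 0, 6.67 and 0 normalized counts in WT and 3.97, 2.03 and 0 in Sgo1-/+, which is too few to check the genotype. In bulk tissue, fewer cells of a type and less RNA per cell cannot be told apart.

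None of the 9 genes passed an adjusted p-value of 0.05 in the comparison of Sgo1-/+ with WT by edgeR's quasi-likelihood test, and each had an adjusted p of 0.9999. The same held for all tested genes, of which 0 (0%) passed. DESeq2's Wald test passed 3 genes and edgeR's likelihood ratio test 2 genes, none of them among the 9. At an unadjusted p under 0.05, edgeR called 333 of 16337 genes (2.04%) and 0 of the 9. The values of WT and Sgo1-/+ libraries overlapped for each of the 9 genes. Over all tested genes they did not overlap for 1113 of 16337 (6.81%). Both counts of 0 among the 9 are near these background shares and are no result about the 9 genes. The fitted log2 fold change, Sgo1-/+ against WT, was above 0 for 7 of the 9 and below 0 for 2, with a median of 0.25 beside 0.00 over all tested genes. Without WT replicate 1 it was 0.09 for Nr3c1, 0.09 for Nr3c2, -0.12 for Fkbp5, 0.20 for Sgk1 and 0.53 for Tsc22d3. In the same refit it was 0.16 for Zbtb16, 0.02 for Errfi1, 0.21 for Pdk4 and -0.30 for Sult1a1.

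**Figure D1:**
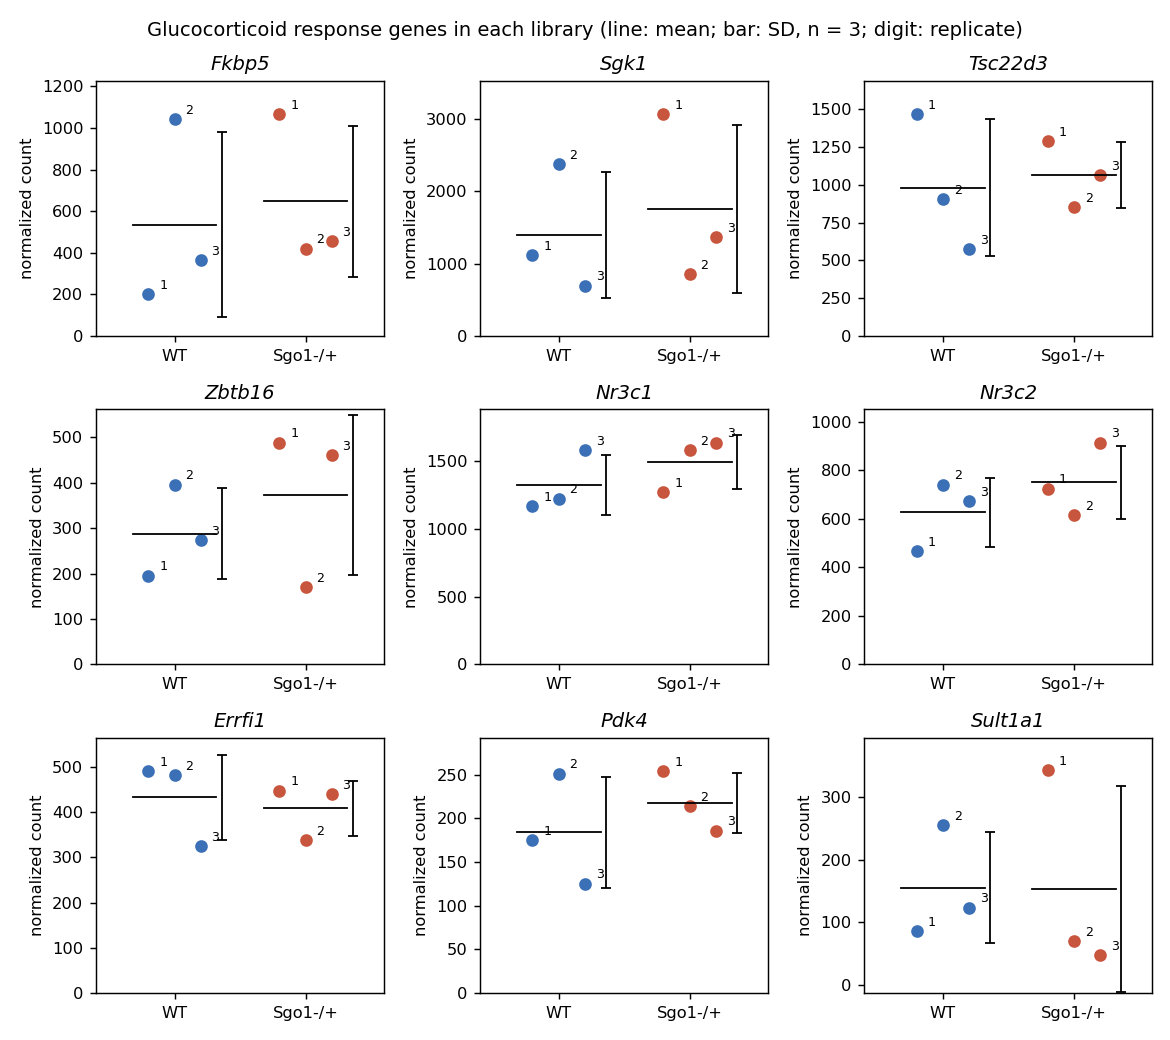
Normalized counts (vertical axis, linear) of the 9 genes in 3 WT and 3 Sgo1-/+ libraries; each point is a library with its replicate number, the line is the mean and the bar the SD. The groups overlap in every panel, and WT replicate 2 and Sgo1-/+ replicate 1 are the 2 highest points for Fkbp5, Sgk1, Pdk4 and Sult1a1.

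Among the receptors, Nr3c1 encodes the glucocorticoid receptor (ENSMUSG00000024431, GRCm38 chr18:39410545-39491301, minus strand). Its normalized counts were 1164, 1222 and 1576 in WT and 1268, 1578 and 1633 in Sgo1-/+. It was the steadiest of the 9 genes, with a highest library only 1.4 times the lowest. The log2 fold change was 0.18 (SE 0.161, 95% interval -0.21 to 0.56, edgeR adjusted p = 0.9999), and the exact two-sided permutation test gave p = 0.2, where 3 libraries against 3 cannot go below 0.1. This was the smallest permutation p of the 9 genes, and none of the others was below 0.4.

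Nr3c2 encodes the mineralocorticoid receptor (ENSMUSG00000031618, chr8:76899442-77245012, plus strand). In WT it had normalized counts of 466, 741 and 672, and in Sgo1-/+ of 723, 614 and 913. The lowest value was that of WT replicate 1 and the highest that of Sgo1-/+ replicate 3, and the other 4 libraries of both genotypes lay between 614 and 741. The log2 fold change was 0.26 (SE 0.217, 95% interval -0.25 to 0.77, edgeR adjusted p = 0.9999), and without WT replicate 1 it was 0.09. An antisense gene, Gm10649, shares exon bases with Nr3c2 and had normalized counts of 16.9 to 33.2. The library kit does not mark strand, and the part of shared reads in the Nr3c2 counts was not tested.

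Fkbp5 encodes FKBP51, a co-chaperone of the receptor complex and a target of the receptor (ENSMUSG00000024222, chr17:28399095-28517524, minus strand). Its normalized counts were 201, 1041 and 363 in WT and 1066, 419 and 456 in Sgo1-/+. A single library in each genotype, WT replicate 2 and Sgo1-/+ replicate 1, stood at 1041 and 1066, and the other 4 lay between 201 and 456. The log2 fold change was 0.27 (SE 0.634, 95% interval -1.23 to 1.78, edgeR adjusted p = 0.9999). The spread within WT, 5.17-fold from lowest to highest, was far larger than this difference. The sign of the difference depended on single libraries, since leaving out WT replicate 2 gave a log2 fold change of 1.20, leaving out Sgo1-/+ replicate 1 gave -0.29, and leaving out WT replicate 1 gave -0.12.

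Sgk1 encodes a serum- and glucocorticoid-regulated kinase that controls ion channels and transporters (ENSMUSG00000019970, chr10:21882184-21999903, plus strand). The libraries held normalized counts of 1117, 2370 and 694 in WT and 3059, 849 and 1359 in Sgo1-/+. The same libraries as for Fkbp5 were the highest of their genotype. Between genotypes the log2 fold change was 0.33 (SE 0.58, 95% interval -1.04 to 1.71, edgeR adjusted p = 0.9999), and it turned to -0.34 without Sgo1-/+ replicate 1 and grew to 0.96 without WT replicate 2.

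The promoter of Sgk1 is shown because it was the single one of the 9 genes with a paired receptor half-site close to a transcript start. The receptor binds the palindrome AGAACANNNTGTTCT, and its half-site is AGAACA. A looser form, GNACANNNTGTNC, which is contained in the full palindrome, was searched as well, each on both strands of the 250 bases before each RefSeq transcript start. The capitals below mark the palindrome within chr10:21993640-21993889 (GRCm38.p6, plus strand, RefSeq), with 174 bases between it and the transcript start. The annotation places this window in an intron of longer Sgk1 transcripts.
Sgk1: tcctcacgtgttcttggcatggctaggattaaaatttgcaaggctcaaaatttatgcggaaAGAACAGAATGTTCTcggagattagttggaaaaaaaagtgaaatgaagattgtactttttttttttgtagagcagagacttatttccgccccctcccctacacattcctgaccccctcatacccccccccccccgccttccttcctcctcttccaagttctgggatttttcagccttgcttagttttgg

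Of 32851 such windows over all genes, 3 held the full palindrome (0.00913%), 127 the loose form (0.387%) and 5284 the half-site (16.1%). Windows were found for 7 of the 9 genes, all but Zbtb16 and Nr3c1, and numbered 15. The full palindrome was in 1 of these 15, that of Sgk1, and the half-site was in 5, which belong to Sgk1, Tsc22d3 and Sult1a1. These matches are letters in a window, and receptor binding was not measured.

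Tsc22d3 encodes GILZ, a leucine zipper protein that mediates anti-inflammatory actions of the hormone (ENSMUSG00000031431, chrX:140539528-140600659, minus strand). Its normalized counts were 1466, 904 and 573 in WT and 1287, 850 and 1062 in Sgo1-/+. Unlike Fkbp5, it was highest in WT replicate 1. The log2 fold change was 0.12 (SE 0.335, 95% interval -0.67 to 0.91, edgeR adjusted p = 0.9999). Among the females alone the values were 904 and 573 in WT and 1287 and 1062 in Sgo1-/+. The log2 fold change among them was 0.67 (SE 0.228, unadjusted p = 0.0243, edgeR adjusted p = 1). With both sexes, leaving out WT replicate 1 gave 0.53, and leaving out WT replicate 3 gave -0.15.

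Zbtb16 encodes PLZF, a zinc finger repressor of transcription (ENSMUSG00000066687, chr9:48654311-48835945, minus strand). PLZF mRNA had normalized counts of 195, 396 and 273 in WT and 488, 170 and 460 in Sgo1-/+. The male of each genotype, WT replicate 1 and Sgo1-/+ replicate 2, had the lowest value of its group, as it also had for Fkbp5 and Nr3c2. The WT male is also the library with hindbrain transcripts, so sex and tissue content cannot be told apart in WT. For the genotypes, the log2 fold change was 0.37 (SE 0.427, 95% interval -0.64 to 1.38, edgeR adjusted p = 0.9999). Among the females it was 0.50 (SE 0.199, unadjusted p = 0.0421, edgeR adjusted p = 1).

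Errfi1 encodes MIG6, an inhibitor of the EGF receptor (ENSMUSG00000028967, chr4:150853919-150868892, plus strand). Normalized counts were 491, 482 and 325 in WT and 448, 338 and 440 in Sgo1-/+, a range of 1.51-fold. Its log2 fold change was -0.08 (SE 0.199, 95% interval -0.55 to 0.39, edgeR adjusted p = 0.9999), and it was 0.02 without WT replicate 1.

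Pdk4 encodes a kinase that switches off pyruvate dehydrogenase and so spares glucose (ENSMUSG00000019577, chr6:5483351-5496309, minus strand). Normalized counts of Pdk4 were 175, 251 and 125 in WT and 254, 214 and 186 in Sgo1-/+. The 2 highest values, 251 in WT replicate 2 and 254 in Sgo1-/+ replicate 1, were nearly equal. Sgo1-/+ against WT gave a log2 fold change of 0.25 (SE 0.269, 95% interval -0.39 to 0.89, edgeR adjusted p = 0.9999).

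Sult1a1 encodes a phenol sulfotransferase (ENSMUSG00000030711, chr7:126672865-126676432, minus strand). Its normalized counts were 85.6, 255 and 123 in WT and 343, 69.9 and 47.1 in Sgo1-/+. It had the widest range of the 9 genes, 7.28-fold, and its group means of 155 ± 89.1 (SD) for WT and 153 ± 165 (SD) for Sgo1-/+, n = 3 each, nearly coincided. Between the groups the log2 fold change was -0.01 (SE 0.775, 95% interval -1.85 to 1.83, edgeR adjusted p = 0.9999). Without Sgo1-/+ replicate 1 it was -1.40 (SE 0.528, unadjusted p = 0.0391, edgeR adjusted p = 1). Exon bases of Sult1a1 are shared with Sgf29 on the other strand, listed as Ccdc101, and the library kit does not mark strand. The normalized counts of Ccdc101 were 153, 120 and 83.2 in WT and 123, 98.3 and 124 in Sgo1-/+, and were not highest in the libraries in which Sult1a1 was. The part of shared reads in the Sult1a1 counts was not tested.

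**Figure D2:**
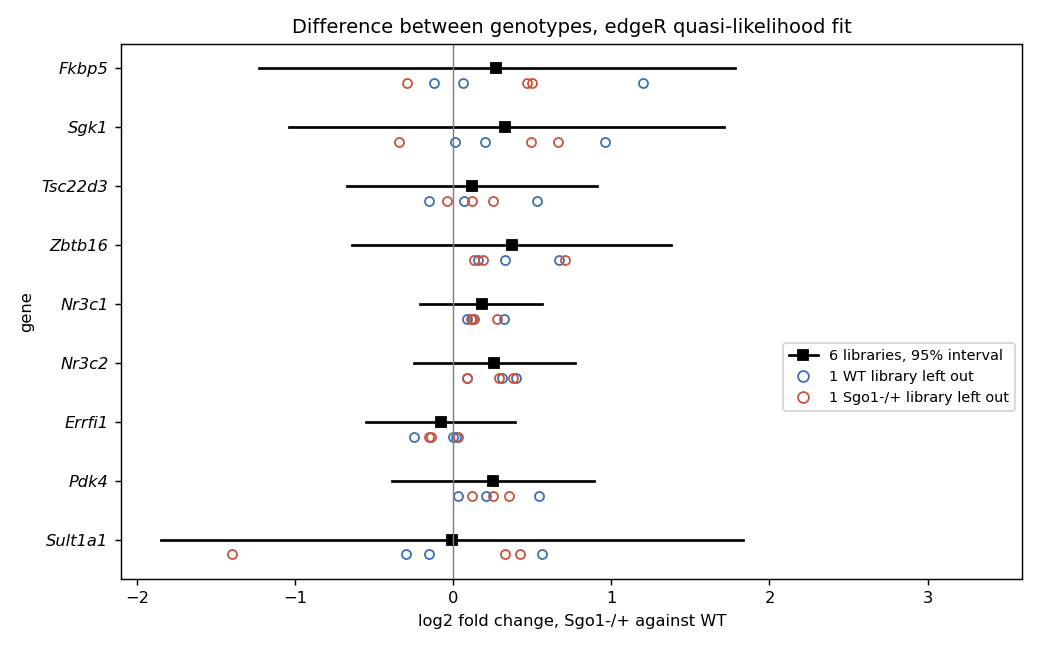
Log2 fold change of Sgo1-/+ against WT (horizontal axis) for each of the 9 genes; squares and lines are the 6-library edgeR estimate with its 95% interval, and open circles are refits with 1 WT (blue) or 1 Sgo1-/+ (red) library left out. Every interval includes 0, and leaving out a library moved Fkbp5 between -0.29 and 1.20 and Sult1a1 between -1.40 and 0.56, while Nr3c1 stayed between 0.09 and 0.32.

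On the scale of CPM per kb of exon, library-scaled counts divided by exon length, which allows levels of different genes to be set side by side, Sgk1 was the most abundant at a mean of 26.6 and Pdk4 the least at 4.74. Between them came Tsc22d3 at 19.5, Nr3c1 at 15.2, Errfi1 at 9.73, Nr3c2 at 8.80, Sult1a1 at 8.46, Zbtb16 at 5.18 and Fkbp5 at 5.17. Of neighbours in this order, only Nr3c1 (12.6 to 17.6 over the 6 libraries) and Errfi1 (7.51 to 11.4) did not overlap. All other neighbours overlapped in their range.

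For each of the 9 genes the highest WT library exceeded the lowest WT library by more than the fitted fold change between genotypes. WT replicate 2 and Sgo1-/+ replicate 1 were the 2 highest of the 6 libraries for 4 of the 9 genes, and for 1386 of 16337 tested genes (8.48%). The choice of this pair followed from the values themselves, and the libraries were not averaged or tested as a group. Levels at least 2-fold above the median of the 6 libraries were reached by 2 of the 9 genes, Fkbp5 and Sult1a1, in WT replicate 2, against 212 of all tested genes (1.3%). In Sgo1-/+ replicate 1 they were reached by 3, Fkbp5, Sgk1 and Sult1a1, against 174 of all tested genes (1.07%). The receptor genes Nr3c1 and Nr3c2 were within 2-fold of their median in each library.

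A list of 25 other glucocorticoid target genes showed the same pair of libraries. The list was written with earlier results of these libraries known, so its count is a description. WT replicate 2 and Sgo1-/+ replicate 1 were the 2 highest libraries for 18 of 25 genes, and the next most frequent of the 15 possible pairs, WT replicate 1 with Sgo1-/+ replicate 1, for 3 of 25. At least 2-fold above the median were 7 of 25 in WT replicate 2 and 10 of 25 in Sgo1-/+ replicate 1. The median log2 ratio to the 6-library median was 0.80 and 0.72 in these libraries and between -0.38 and -0.05 in the other 4.

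**Figure D3:**
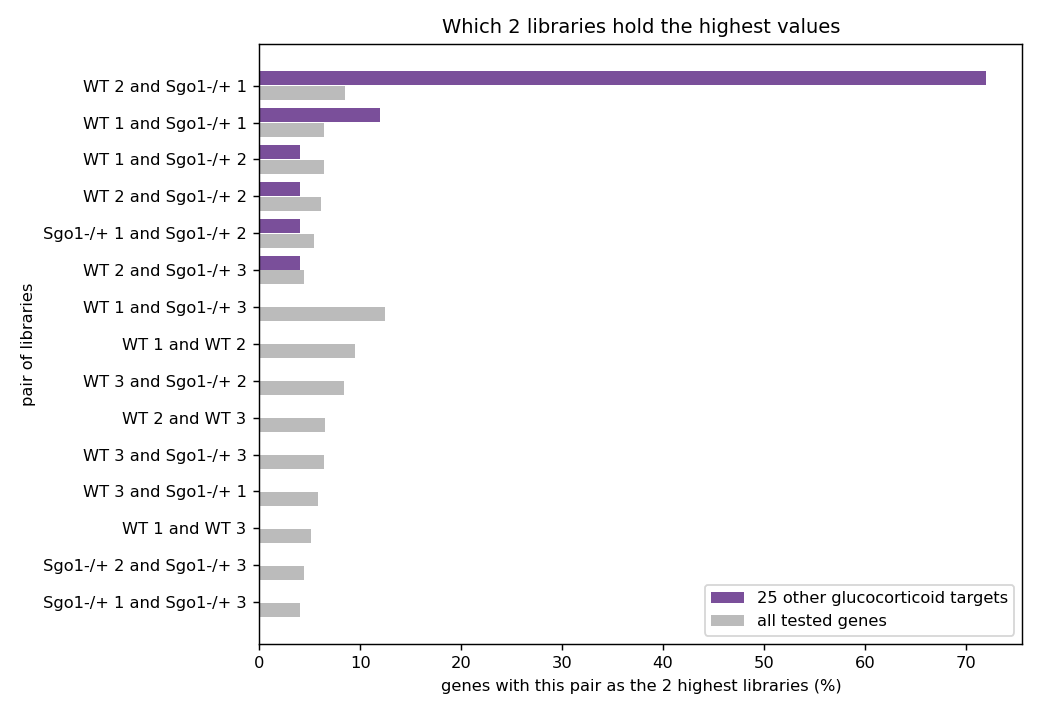
Share of genes (horizontal axis, percent) whose 2 highest libraries are the pair named on the vertical axis, for the 25 other target genes (purple) and all 16337 tested genes (grey). WT replicate 2 with Sgo1-/+ replicate 1 holds 18 of the 25 target genes and 8.48% of all tested genes.

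Plin4, a coat protein of lipid droplets, had the widest range in this list, with normalized counts of 70.5, 798 and 31.4 in WT and 733, 44.6 and 157 in Sgo1-/+. Hif3a, which encodes a subunit of the hypoxia-inducible factors, had 60.4, 350 and 55.8 in WT and 392, 43.6 and 110 in Sgo1-/+. Both were several-fold higher in the named libraries than in any other, and the group means lay between the values of single libraries. Lcn2, an iron-binding protein of the acute phase, had 8.06, 99.0 and 19.3 in WT and 92.4, 8.11 and 14.3 in Sgo1-/+. Cdkn1a, the cell-cycle inhibitor p21, had 170, 571 and 262 in WT and 614, 217 and 200 in Sgo1-/+. Arrdc2, an arrestin-domain gene, had 160, 417 and 125 in WT and 403, 130 and 192 in Sgo1-/+. The fitted log2 fold changes of these 5 genes were small, from -0.14 for Lcn2 to 0.23 for Hif3a, each with an edgeR adjusted p of 0.9999.

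Not all targets shared the pattern. Per1, a clock gene, and Dusp1, a phosphatase of MAP kinases, were highest in Sgo1-/+ replicate 2, Bcl6 and Gpd1 in WT replicate 1, and Rasd1 in Sgo1-/+ replicate 3. Mt2 and Gjb6 were highest in Sgo1-/+ replicate 1 and second highest in WT replicate 1. Between the genotypes, 19 of the 25 target genes had a log2 fold change above 0 and 6 below, with a median of 0.06, and 0 passed an unadjusted p of 0.05 by edgeR. The 4 with the smallest p were Dusp1 at 0.45 (unadjusted p = 0.151), Klf9, a transcription factor induced by the hormone, at 0.30 (unadjusted p = 0.265), Gpd1 at -0.22 (unadjusted p = 0.271) and Fam107a at 0.38 (unadjusted p = 0.324), each with an edgeR adjusted p of 0.9999.

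**Figure D4:**
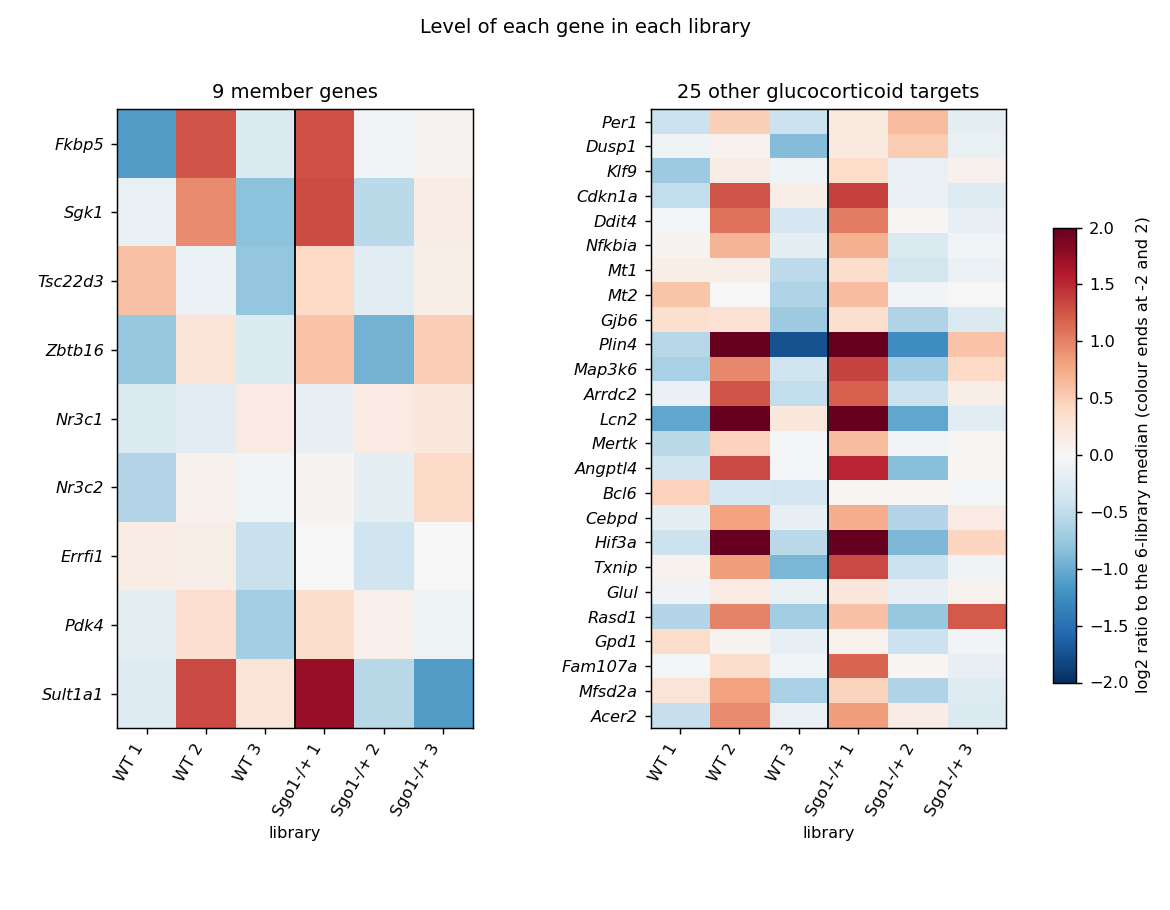
Log2 ratio of each gene's normalized count to its median over the 6 libraries (colour, red higher and blue lower, values set to at least 3 counts), for the 9 genes (left) and the 25 other target genes (right); the line separates WT from Sgo1-/+. Columns WT 2 and Sgo1-/+ 1 are red for most targets, with Plin4, Hif3a and Lcn2 past the end of the scale, while the Nr3c1 and Nr3c2 cells are pale.

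The loose palindrome was found near a transcript start in 4 of the 21 target genes with a RefSeq window, and none of these held the full one. Angptl4, Cebpd, Rasd1 and Gpd1 had no window. The 4 stretches are shown to set beside that of Sgk1, 5′ to 3′ on the strand of the gene, with the loose palindrome in capitals (GRCm38.p6, RefSeq). They lie at chr8:94178970-94179032 for Mt1, chr4:133240612-133240674 for Map3k6, chr3:96557760-96557822 for Txnip and chr14:8309860-8309922 for Fam107a, the last on the minus strand. The Txnip stretch lies within an exon of Gm15441, the Fam107a stretch in an intron of a longer Fam107a transcript, and the other two outside annotated transcripts.
Mt1: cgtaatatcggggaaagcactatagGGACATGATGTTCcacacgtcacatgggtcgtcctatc
Map3k6: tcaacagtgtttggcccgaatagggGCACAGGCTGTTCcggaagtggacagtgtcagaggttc
Txnip: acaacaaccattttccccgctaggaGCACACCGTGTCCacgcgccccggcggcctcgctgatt
Fam107a: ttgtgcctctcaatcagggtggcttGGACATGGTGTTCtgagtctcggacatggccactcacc

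In each of these 4 genes, as in Sgk1, the 2 highest libraries were Sgo1-/+ replicate 1 and WT replicate 2, for Mt1 with only 2927 in WT replicate 2 against 2898 in WT replicate 1. Map3k6, a stress kinase gene, had 37.3, 114 and 44.6 normalized counts in WT and 150, 36.5 and 76.7 in Sgo1-/+. Fam107a, an actin-binding stress gene, had 5046, 6587 and 4991 in WT and 11612, 5334 and 4639 in Sgo1-/+. Fkbp5, Plin4 and Hif3a, which had the same 2 highest libraries, held no loose palindrome in their windows.

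Taken as a list median, genes of the receptor complex and of hormone handling were steadier between libraries. Single genes of this list were not all steady, since Hsd11b1 ranged 4.77-fold and Fkbp4 2.11-fold over the 6 libraries. Of a list of 12 genes, 11 were tested, and WT replicate 2 with Sgo1-/+ replicate 1 was the highest pair for 0 of them, which is near the share of 8.48% among all tested genes and is no result about the list. The list median lay between -0.07 and 0.05 on the log2 scale in all 6 libraries. Between genotypes, 4 of the 11 had a log2 fold change above 0 and 7 below, with a median of -0.05, and 0 passed an unadjusted p of 0.05. Those with the smallest p were Crebbp at -0.16 (unadjusted p = 0.27), Abcb1a, an efflux transporter of the blood-brain barrier, at 0.16 (unadjusted p = 0.312), Fkbp4, the co-chaperone FKBP52, at -0.28 (unadjusted p = 0.35) and Stip1 at -0.13 (unadjusted p = 0.419), each with an edgeR adjusted p of 0.9999. Hsd11b1, which regenerates active hormone, had 377, 79.0 and 79.1 in WT and 83.4, 101 and 207 in Sgo1-/+, highest in WT replicate 1, the library with hindbrain transcripts. Hsd11b2, which inactivates the hormone, was at most 3.97 normalized counts and was not tested.

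Immediate early genes, which neurons switch on within minutes of activity or handling, followed another order. The pair WT replicate 2 and Sgo1-/+ replicate 1 was highest for 0 of 10, again near that background share. Sgo1-/+ replicate 2 was the highest library for 9 of 10, against 2213 of 16337 tested genes. All 10 had a log2 fold change above 0, with a median of 1.03, and 3 passed an unadjusted p of 0.05, against 2.04% of all genes. The groups did not overlap for 6 of 10, against 6.81% of all genes. This list, too, was written with earlier results of these libraries known. It holds Arc, which the paper reports as differentially expressed in the same brains, so its counts are a description. WT replicate 1, the library with hindbrain transcripts, was the lowest for 7 of the 10, and for 4961 of 16337 tested genes. Its list median was -1.42 on the log2 scale relative to the 6-library median. Forebrain neuron markers, 8 of 8 tested, were lowest in the same library, with a median of -3.29 there, sums of 7112 to 64468 in WT and 53643 to 65459 in Sgo1-/+, and log2 fold changes above 0 for 8 of 8 (median 0.59). The median log2 fold change of the immediate early genes was 0.74 without WT replicate 1 and 0.45 among females only, and the part of the markers in it was not tested. Egr1 had a log2 fold change of 1.40 (SE 0.387, unadjusted p = 0.00883), Arc of 1.56 (unadjusted p = 0.0117), Nr4a1 of 1.25 (unadjusted p = 0.0209) and Junb of 1.02 (unadjusted p = 0.0758), each with an edgeR adjusted p of 0.9999. Thus Sgo1-/+ replicate 2, which led these genes, had a median log2 ratio of 0.91 for them, -0.37 for the 25 target genes and -0.20 for the 9 genes.

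Markers of other cells and regions were measured beside these levels. Blood markers, 3 of 5 found, were highest in Sgo1-/+ replicate 1, with a summed normalized count of 1882 to 2821 in WT and 714 to 8738 in Sgo1-/+, and a median log2 ratio of 1.96 in that library and 0.25 in WT replicate 2. Endothelial markers, 10 of 10 tested, had medians of 0.35 and -0.04 in the same libraries, with sums of 4567 to 5386 in WT and 4236 to 6763 in Sgo1-/+. Olfactory bulb markers, 8 of 8 tested, had medians of 0.56 and 1.71, with sums of 2746 to 4904 in WT and 1281 to 2153 in Sgo1-/+. These sums did not overlap, but the list medians did, at -0.31 to 1.71 in WT and -1.52 to 0.56 in Sgo1-/+. Of the 8 genes, 1 did not overlap, against 6.81% of all tested genes. The largest sum was that of WT replicate 1, where Calb2 alone had 2346. By the study's methods the olfactory bulb was removed from the tissue. Choroid plexus markers, 10 of 10 tested, had medians of -0.87 and 0.87, with sums of 622 to 21503 in WT and 299 to 24007 in Sgo1-/+, and their most abundant gene Ttr was highest in Sgo1-/+ replicate 3 and WT replicate 1. Astrocyte medians were 0.09 and -0.08, and microglial medians 0.09 and -0.02. The part of these markers in the levels of the 9 genes was not tested.

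The genes whose log2 CPM followed Fkbp5 most closely over the 6 libraries were Akap8l (Pearson r = 0.996), Mxi1 (0.989), Swap70 (0.988), Mertk (0.985) and Ddb1 (0.982), of 16336 genes compared. Mertk, a receptor for the uptake of dying cells, is also on the target list and had 303, 603 and 434 normalized counts in WT and 677, 421 and 444 in Sgo1-/+. Those most like Tsc22d3 were Slc25a13 (0.999), Tep1 (0.995), Decr1 (0.987), Rwdd3 (0.983) and AC108401.1 (0.982). With 6 libraries such values are a description, since 45 genes reached r above 0.95 with Fkbp5 and 42 with Tsc22d3. Fkbp5 and Tsc22d3 had r = -0.028 with each other, whereas Fkbp5 and Sgk1 had r = 0.802.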

How the data were processed

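By the paper's methods, the authors aligned their paired-end reads to mm10 in Strand NGS and normalized with DESeq. The processing notes of the labels name BWA and edgeR instead, and the paper's account was used here. The authors deposited, for each of 38087 Ensembl genes, an estimated count per library without normalization and a normalized log2 value centred on the gene's median. They also deposited columns with their own fold change and regulation, which were not used. Columns Br1 to Br3 were taken as WT and Br4 to Br6 as Sgo1-/+ from the series' record. Estimated counts were rounded and compared with edgeR 4.0.16 in R 4.3.3 (quasi-likelihood test, TMM, default filter, no covariates, Benjamini-Hochberg over 16337 genes). A normalized count is the estimated count over the library's TMM-effective size, times the mean of these sizes. SE is the log2 fold change divided by the square root of F. Single genes were compared by exact permutation over 20 groupings. Replicates are single mice as far as the labels say, so p-values measure the spread between these samples. A count of 0 allows up to 3 counts, for counting error only. Alternatives used DESeq2 1.42.0 and limma 3.58.1. Exon positions came from GENCODE (GRCm38, which is mm10), holding 36308 of the gene IDs. From each list the text gives the 4 genes with the smallest p, and for Fkbp5 and Tsc22d3 the 5 most similar genes. Other target genes with their values were named after these were seen. The 9 genes and all lists were chosen with earlier results of these data known. Strand use in counting is not given in the sources used here.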

Additional observations from a re-analysis of the deposited data

How the results depend on the processing

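With 3 libraries a group, differences of the size seen for Fkbp5 or Sgk1 were smaller than the spread within a genotype. Of 144 values of the 9 genes under alternatives, 132 kept their direction and 12 turned it, and the lowest adjusted p was 0.764. Among females only, Errfi1 turned to 0.14 and Sult1a1 to 0.04. There 2 of the 9 genes (Tsc22d3 and Zbtb16) had an unadjusted p under 0.05 by edgeR, against 0 with all libraries. Over all tested genes the number rose as well, from 333 with all libraries to 578 among females. Leaving out single libraries gave 0 to 1 of the 9 genes at this p, Sult1a1 without Sgo1-/+ replicate 1, where 360 of all tested genes reached it. Log2 fold changes then ranged from -0.29 to 1.20 for Fkbp5, -0.34 to 0.96 for Sgk1, -0.15 to 0.53 for Tsc22d3, -0.25 to 0.03 for Errfi1, -1.40 to 0.56 for Sult1a1, 0.13 to 0.71 for Zbtb16, 0.03 to 0.54 for Pdk4, 0.09 to 0.32 for Nr3c1 and 0.09 to 0.40 for Nr3c2. List medians ranged from -0.33 to 0.56 for the 25 target genes, -0.12 to 0.01 for the receptor complex and 0.74 to 1.72 for immediate early genes, 1.72 being without WT replicate 2. The median of immediate early genes among females only was 0.45, against 1.03 with all libraries.

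Genes past the adjusted threshold numbered 0 with edgeR's quasi-likelihood test, 3 with DESeq2's Wald test (2 of them 2-fold), 2 with the likelihood ratio test (both 2-fold), 1 among females only (also 2-fold) and 0 to 1 with a library left out, the 1 being without Sgo1-/+ replicate 2. Genes at an unadjusted p under 0.05 numbered 333, of which 132 were higher in Sgo1-/+, against 563 with no filter, 578 among females only (343 higher) and 240 to 1040 with a library left out, with 626 without WT replicate 1 and 1040 without WT replicate 3. A limma fit to the deposited normalized values, an alternative added after seeing the data, called 0 genes and 425 at an unadjusted p under 0.05. The settings also differ in the number of samples or of genes tested, and the cause of these shifts was not tested. The replicate block gave 0 genes past the threshold and 280 at an unadjusted p under 0.05. Deviations of same-numbered libraries from their group means had r = -0.146, 0.014 and -0.207. These values gave no sign that the numbers pair the mice, but with 3 libraries a group they cannot exclude it.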
